A study of Mus musculus with 6 samples.

Results

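The genes described here encode the PI3K, Akt and mTOR signalling pathway, and their transcript levels were compared between regulatory T cells that lacked DJ-1 and regulatory T cells that carried it. Members were taken from a list of 33 gene symbols, of which 19 were counted as activators and 14 as inhibitors of the pathway. A member was measured by every probe set whose platform annotation gives exactly 1 gene symbol and that symbol is the member's. All 33 were found among 23152 such genes on the array, through 642 probe sets. The cells were CD4-positive T cells with high CD25, sorted by flow cytometry from the spleens of untreated male mice aged 45 weeks kept under specific-pathogen-free conditions. The KO group held 3 mice of genotype DJ-1-/-, in which both copies of Park7, the gene for DJ-1, are disrupted, and the WT group held 3 DJ-1+/+ littermates. Each mouse gave 1 Affymetrix Mouse Gene 2.0 ST array, with no technical replicate. Which part of Park7 the knockout removes is not given in the sources used here.

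Phosphoinositide 3-kinase (PI3K) is recruited below the T cell receptor, CD28 and cytokine receptors and makes a membrane lipid that brings the kinase Akt to the membrane. Akt then blocks the tuberous sclerosis complex, which releases the GTPase Rheb to switch on mTOR complex 1, while amino acids reach the same complex through the Rag GTPases on the lysosome. In regulatory T cells the pathway is held at a low level by lipid and protein phosphatases, which keeps FoxO transcription factors in the nucleus, and mTOR complex 1 is needed for their effector function. The array measures transcript levels and not phosphorylation, so nothing here measures whether the pathway was active.

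Intensities were compared as log2(intensity + 16), with the median over its probe sets taken as the level of a gene. The median intensity per array lay between 88.6 and 100.2. KO replicate 1 stood apart, being lowest in median intensity and correlating least with the others (on average 0.951, against 0.957 to 0.964 for those). Park7 was at 9.27 to 9.70 log2 units in the 3 WT arrays and at 5.71 to 6.06 in the 3 KO arrays (limma adjusted p = 2.06e-05). Of the 10 genes listed as markers of regulatory T cells, all 10 passed the filter on low values and 0 passed the test. Their median difference, KO minus WT, was -0.12, with 9 of the 10 lower in KO, and in 4 of them every KO array lay below every WT array, as in 11.3% of all tested genes (Nrp1 at -0.26, Ikzf2 at -0.20, Cd3e at -0.19 and Ikzf4 at -0.12). Foxp3, the lineage transcription factor and the 1 marker higher in KO, was at 12.64 to 12.68 in WT and 12.69 to 12.75 in KO. Levels come from sorted bulk samples, in which fewer cells of a type and less RNA per cell cannot be told apart.

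No pathway gene differed between KO and WT past the threshold. All 33 members passed the filter on low values (a mean of at least 5.90 log2 units, the 40th percentile of genes), and 0 of the 33 had an adjusted p under 0.05 in limma, against 0.274% of the 13891 genes tested. At an unadjusted p of 0.05, 2 of the 33 differed (6.06%), Pik3r5 higher and Eif4ebp1 lower in KO, where 10.7% of all genes did. The KO values of 4 members (12.1%) lay entirely on 1 side of the WT values, where 17.4% of all genes showed no overlap. These were Pik3r5 and Inpp5d, higher in KO as 6.10% of all genes were, and Akt2 and Eif4ebp1, lower in KO as 11.3% were. Both shares of the members lay under those of all genes, so neither count sets the pathway apart. The differences ranged from -0.40 for Rheb to 0.53 for Pik3r5 with a median of 0.0066, and the median over all tested genes was -0.052.

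The 95% intervals show how large a difference these arrays leave possible. For all 33 members the interval lay within 1 log2 unit of 0, a 2-fold change in either direction. For 22 of them it lay within 0.585 log2 units of 0, a 1.5-fold change. An adjusted p above the threshold does not show that a gene was equal in both groups, and for the other 11 members, Pik3r5, Pik3ca and Rheb among them, a change of over 1.5-fold lies inside the interval.

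**Figure D1:**
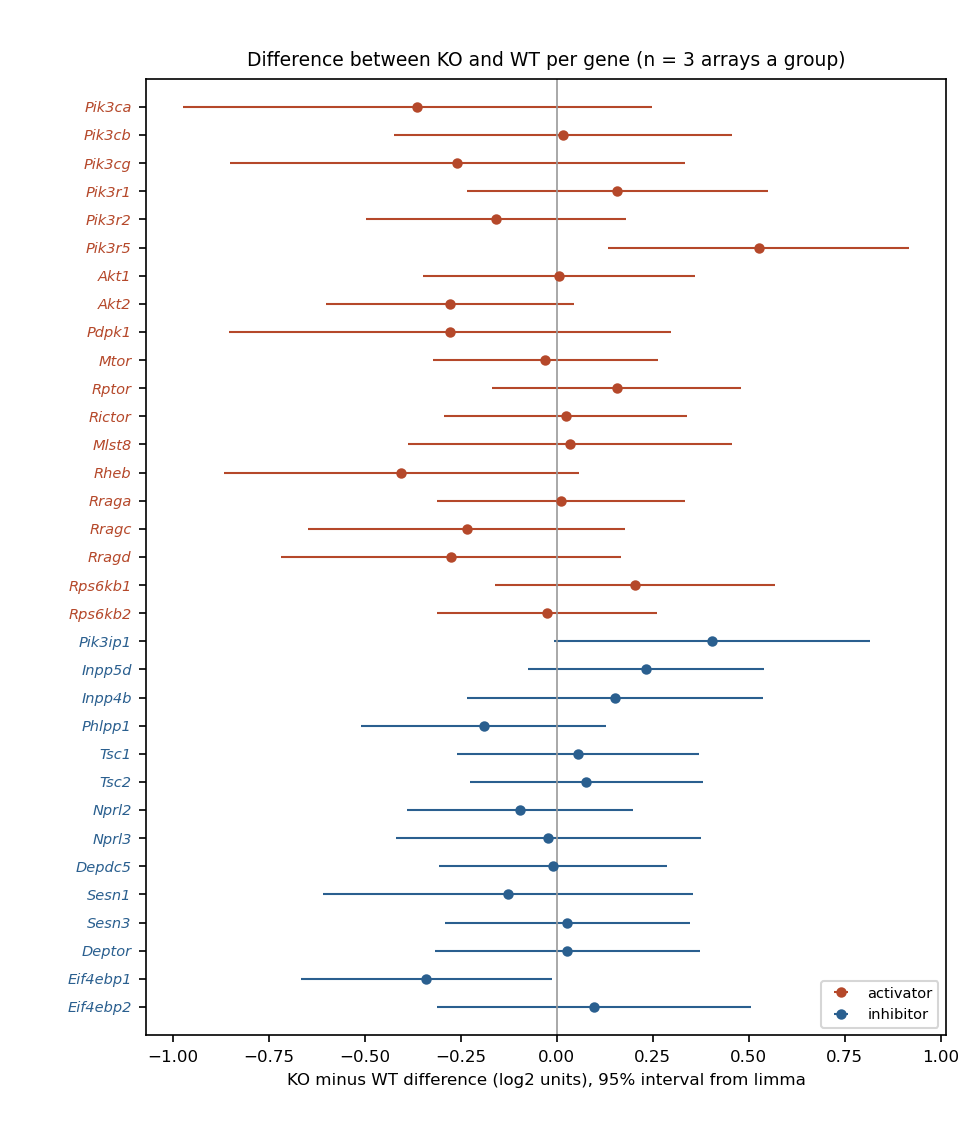
The KO minus WT difference of each of the 33 member genes in log2 units (horizontal axis), with its 95% interval from limma over 3 KO and 3 WT arrays; activators are red and inhibitors blue. The intervals of Pik3r5 and Eif4ebp1 lie off 0, and no interval reaches 1 log2 unit from 0.

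Among the PI3K subunits, the regulatory subunit gene Pik3r5 had the largest difference of any member. Pik3r5 encodes p101, the adaptor through which G protein-coupled receptors engage the gamma isoform of PI3K. Taking the replicates of each group in the order 1 to 3, here and below, it measured 8.54, 8.73 and 8.66 in WT and 9.50, 8.87 and 9.15 in KO. Every KO array lay above every WT array, and KO replicate 1 was the highest. The WT mean was 8.64 ± 0.09 and the KO mean 9.17 ± 0.32 (SD, n = 3 in each group), a difference of 0.53 log2 units or 1.44-fold (SE 0.18, 95% interval 0.13 to 0.92, limma adjusted p = 0.319). Without KO replicate 1 the difference was 0.36 (0.036 to 0.69, adjusted p = 0.385). The probe sets of Pik3r5 ran the same way along the gene, since all 23 were higher in KO and 13 of the 23 showed no overlap, where 6.17% of all probe sets on the array were higher in KO without overlap. The 23 probe sets sample the same RNA and are not replicates.

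The catalytic partner of p101, Pik3cg, did not share that pattern. It measured 9.38, 9.48 and 9.40 in WT and 8.53, 9.78 and 9.16 in KO, so that the KO arrays held both the lowest and the highest value (difference -0.26, SE 0.26, adjusted p = 0.760). Pik3ca, the gene of the alpha catalytic subunit, was at 10.12, 10.25 and 10.23 in WT and at 9.09, 10.15 and 10.27 in KO. Its difference of -0.36 (SE 0.27, adjusted p = 0.676) lay in KO replicate 1, and was 0.0090 without that array. Pik3cb, which encodes the beta catalytic subunit, differed by 0.016 (95% interval -0.42 to 0.46). The regulatory subunit genes Pik3r1 and Pik3r2, whose products hold and stabilise the catalytic subunits, differed by 0.16 and -0.16 (adjusted p = 0.780 and 0.741). For Pik3r1, KO replicates 2 and 3 at 10.81 and 10.99 lay above the 3 WT arrays at 10.43 to 10.67, and KO replicate 1 at 10.40 lay below them.

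Of the Akt genes, Akt2 lay lower in every KO array. It measured 10.84, 10.67 and 10.76 in WT and 10.29, 10.62 and 10.54 in KO, and the lowest WT array lay just above the highest KO array. The difference was -0.28 (SE 0.14, 95% interval -0.60 to 0.045, adjusted p = 0.550) and -0.18 without KO replicate 1. Of its 17 probe sets 13 were lower in KO, 3 of them without overlap, where 7.64% of all probe sets were lower without overlap. Akt1, the gene of another Akt isoform, was at 9.38 to 9.72 in WT and at 9.37 to 9.76 in KO and differed by 0.0066 (-0.35 to 0.36). Pdpk1 encodes PDK1, the kinase that phosphorylates Akt in its activation loop. It measured 9.91, 10.03 and 9.84 in WT and 8.96, 10.01 and 9.97 in KO, a difference of -0.28 (SE 0.26, adjusted p = 0.730) that was 0.064 without KO replicate 1.

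The genes of the mTOR complexes lay close together in both groups. Mtor, the kinase shared by both complexes, was at 8.94, 8.93 and 9.11 in WT and at 8.93, 8.95 and 9.01 in KO, and all KO values fell inside the WT range. It differed by -0.030 (SE 0.13, 95% interval -0.32 to 0.26, adjusted p = 0.951), and the sign turned with quantile normalization (0.027) and with median centring (0.073). Rptor, the scaffold that defines complex 1, differed by 0.16 (-0.17 to 0.48), and 22 of its 33 probe sets were higher in KO. Rictor, the scaffold that defines complex 2, differed by 0.023 (-0.29 to 0.34) and Mlst8, a subunit of both, by 0.035 (-0.39 to 0.46). Without KO replicate 1 the difference of Mlst8 was 0.24 (adjusted p = 0.547).

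Mtor lies within 10 Mb of Park7 on chromosome 4, so genotype at Park7 and any allele carried along with it cannot be told apart for this gene. The gene value hides a spread over its 43 probe sets. Probe set 17421654 was at 8.28, 8.28 and 8.25 in WT and at 7.03, 6.64 and 6.90 in KO, a difference of -1.41 (SE 0.15), and it had the smallest p of all 642 member probe sets. Its neighbour by number, 17421653, differed by -0.71 and 17421606 by -0.94, and in both the groups did not overlap. In the other direction 17421607, 17421609 and 17421614 differed by 0.51, 0.36 and 0.34. None passed when all 269751 probe sets were tested singly (adjusted p = 0.350 for 17421654 and at least 0.529 for the others named), and 0 of the 642 member probe sets did, against 0.00111% of all. In Mtor 4 of 43 probe sets were lower without overlap and 2 higher without overlap, where 7.64% and 6.17% of all probe sets were. Over the 165 tested genes within 10 Mb of Park7 the median difference was -0.022, with 86 lower and 79 higher in KO. Of them 6 passed (3.64%, against 0.274% of all tested genes), 5 lower and 1 higher, Mtor not among them. Of these 165 genes, 13 had a smaller absolute difference than Mtor. Rragc, Rragd and Rraga lie on chromosome 4 too, outside that window.

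**Figure D2:**
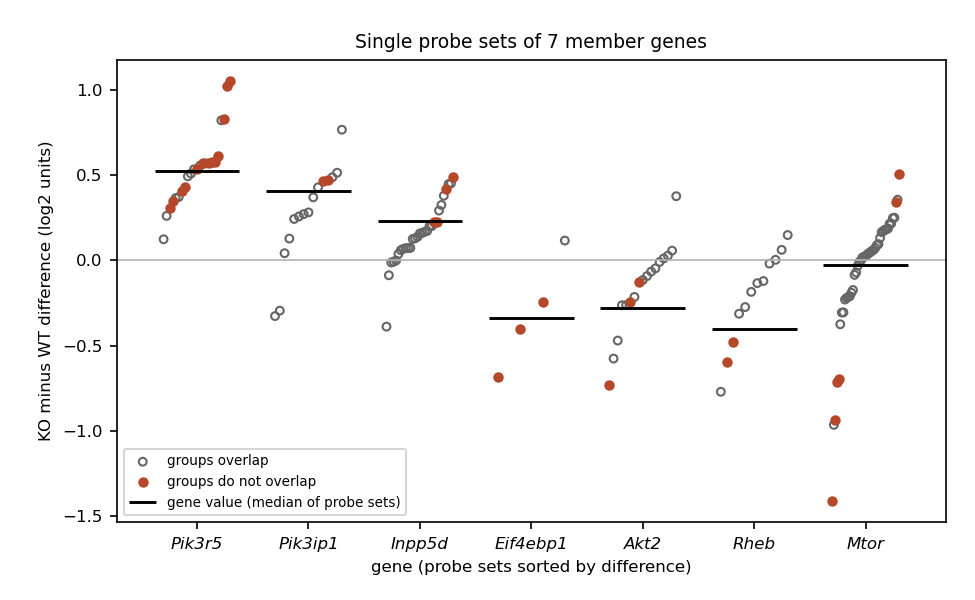
KO minus WT differences in log2 units (vertical axis) of the single probe sets of 7 member genes, sorted within each gene; filled points are probe sets whose KO and WT arrays do not overlap, and bars mark the gene's own difference. All 23 probe sets of Pik3r5 lie above 0, while those of Mtor lie on both sides with 1 at -1.41.

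Of the 4 GTPase genes upstream of mTOR complex 1, 3 had a negative difference and 0 passed the test, with a median of -0.26. Rheb, the direct activator of the complex, measured 9.13, 9.54 and 8.96 in WT and 8.43, 9.02 and 8.96 in KO. KO replicates 2 and 3 lay inside the range of the WT arrays and KO replicate 1 below it. The difference of -0.40 (SE 0.21, 95% interval -0.87 to 0.057, adjusted p = 0.544) was the most negative among the members, and was -0.22 without KO replicate 1. The Rag GTPase genes Rragc and Rragd, whose products pair with RagA or RagB to dock the complex at the lysosome, differed by -0.23 and -0.28. In both, KO replicate 1 was the lowest array, and without it they differed by -0.028 and -0.062. Rraga, which encodes RagA, differed by 0.011 over 3 probe sets, the fewest of any member. The S6 kinase genes Rps6kb1 and Rps6kb2, outputs of complex 1 that promote translation, differed by 0.20 and -0.026 (adjusted p = 0.695 and 0.956), and the sign for Rps6kb2 turned with quantile normalization and median centring.

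Among the inhibitors of PI3K, Pik3ip1 had the largest difference. Its product is a membrane protein that binds and restrains the catalytic subunit, and quiescent T cells are known to carry it. Pik3ip1 measured 9.25, 9.13 and 9.62 in WT and 10.03, 9.61 and 9.57 in KO. KO replicate 1 lay highest, and the other KO arrays lay just below WT replicate 3. The difference was 0.40 (SE 0.18, 95% interval -0.0059 to 0.82, adjusted p = 0.475) and 0.26 without KO replicate 1, and 13 of 15 probe sets were higher in KO. Inpp5d, the gene of the lipid phosphatase SHIP1, was at 10.65, 10.85 and 10.57 in WT and at 10.94, 10.97 and 10.87 in KO. The KO arrays lay above the WT arrays by a narrow gap (difference 0.23, SE 0.14, 95% interval -0.075 to 0.54, adjusted p = 0.592), and 24 of 29 probe sets were higher in KO. Unlike Pik3r5 and Pik3ip1, Inpp5d was not highest in KO replicate 1, and its difference without that array was 0.22. Inpp4b, another lipid phosphatase, differed by 0.15 and Phlpp1, which removes phosphate from Akt, by -0.19 (adjusted p = 0.785 and 0.675).

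The brakes on mTOR itself had differences between -0.13 and 0.077, and none passed the test. Tsc1 and Tsc2, which together form the complex that turns Rheb off, differed by 0.056 and 0.077 (95% intervals -0.26 to 0.37 and -0.23 to 0.38). The GATOR1 genes Nprl2, Nprl3 and Depdc5, whose products switch off RagA when amino acids are scarce, differed by -0.097, -0.022 and -0.011. All 3 of these signs turned with median centring, and Nprl3 and Depdc5 also with quantile normalization. Sesn1, a sestrin that senses leucine shortage and oxidative stress, was at 10.50, 10.54 and 10.45 in WT and at 9.83, 10.66 and 10.61 in KO. Its difference of -0.13 (95% interval -0.61 to 0.35) became 0.14 without KO replicate 1. With every array kept, it was 0.11 when the mean of probe sets was taken, and 10 of its 14 probe sets were higher in KO. The sign thus depended on that array and on the probe-set summary. Sesn3, a sestrin gene induced by FoxO factors, differed by 0.028 (-0.29 to 0.35) and Deptor, which binds and inhibits mTOR, by 0.027 (-0.32 to 0.37).

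Eif4ebp1 was the member with the smallest p on the lower side. It encodes 4E-BP1, which holds back cap-dependent translation until mTOR complex 1 phosphorylates it. It measured 8.99, 8.82 and 8.97 in WT and 8.74, 8.39 and 8.63 in KO. Every KO array lay below every WT array, and KO replicate 1 lay nearest to WT. The means were 8.93 ± 0.09 and 8.59 ± 0.18 (SD, n = 3 each), a difference of -0.34 or 0.790-fold (SE 0.15, 95% interval -0.67 to -0.013, adjusted p = 0.445). It was -0.42 without KO replicate 1 (adjusted p = 0.310). Of its 4 probe sets 3 were lower in KO without overlap, where 7.64% of all probe sets were. Its relative Eif4ebp2, the gene of 4E-BP2, was at 10.37 to 10.86 in WT and at 10.42 to 10.90 in KO and differed by 0.098 (adjusted p = 0.880).

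**Figure D3:**
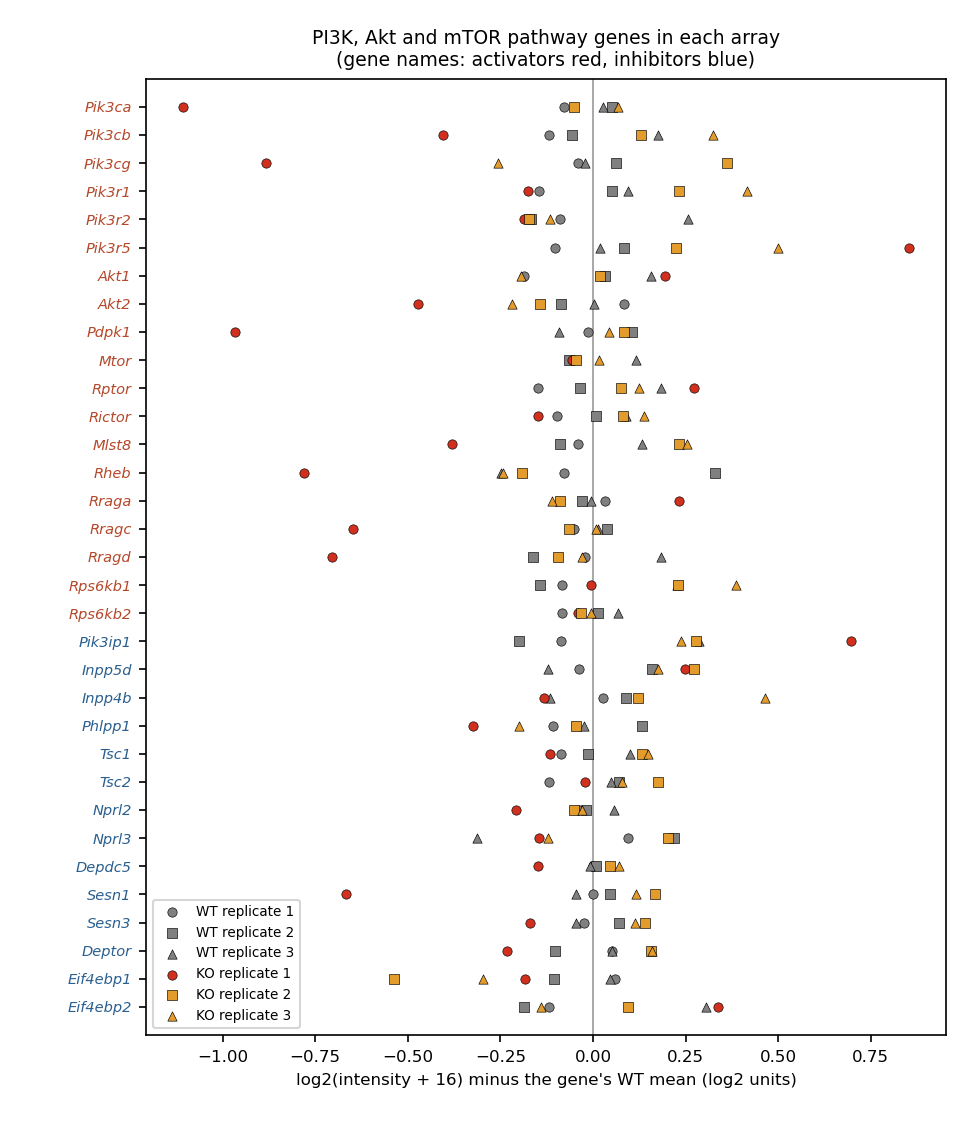
Value of each member in each array minus the gene's WT mean, in log2 units (horizontal axis); grey symbols are WT arrays, orange symbols KO replicates 2 and 3, red circles KO replicate 1. KO replicate 1 is the lowest of the 6 arrays in 20 of 33 genes, with Pik3ca, Pdpk1 and Pik3cg farthest to the left.

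KO replicate 1 set much of the spread in the KO group. It was the lowest of the 6 arrays in 20 members (60.6%) and the highest in 6 (18.2%), where it was lowest in 38.2% and highest in 16.3% of all tested genes. Relative to the mean of the other 5 arrays it lay at -1.11 log2 units for Pik3ca, -0.99 for Pdpk1, -0.91 for Pik3cg, -0.72 for Sesn1 and -0.69 for Rheb. It lay above that mean by 0.71 for Pik3r5 and 0.59 for Pik3ip1. Without this array the comparison is of 2 KO with 3 WT arrays, in which no overlap is easier to reach. In it 15 members showed no overlap (45.5%), 12 higher and 3 lower in KO, against 29.0% of all tested genes (13.7% higher and 15.3% lower). The 12 included 8 of the 14 inhibitors (57.1%) and 4 of the 19 activators (21.1%). The array left out was itself the lowest in 8 of the 14 inhibitors and in 12 of the 19 activators. Its removal raises the KO mean of those members, so these counts cannot be told apart from the choice of array. Again 0 of 33 passed after adjustment, where 37 of all 13891 tested genes did. An unadjusted p under 0.05 was found for 3 of 33, Eif4ebp1, Pik3r5 and Pik3r1, and for 1565 of the 13891 genes.

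**Figure D4:**
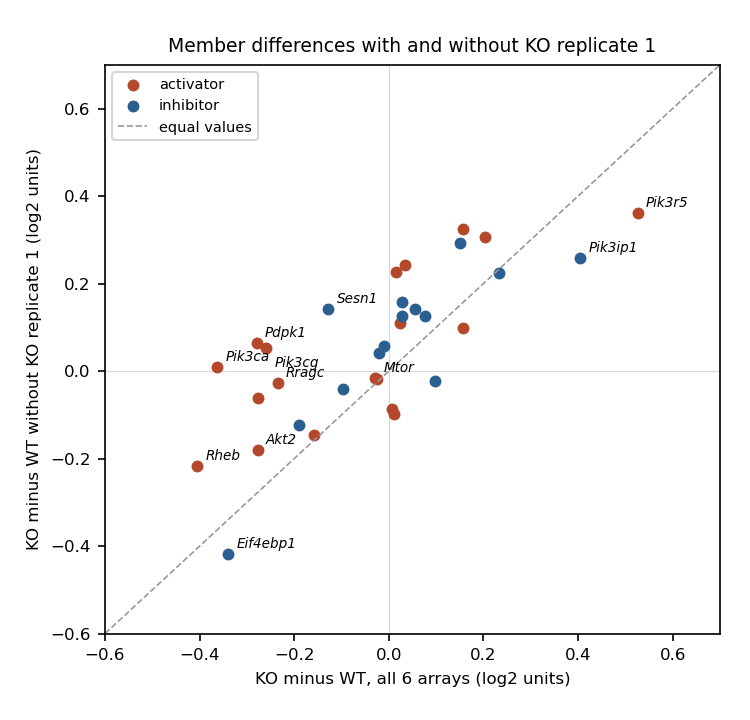
KO minus WT difference of each member with all 6 arrays (horizontal axis) and without KO replicate 1 (vertical axis), in log2 units; activators are red, inhibitors blue, and the dashed line marks equal values. Pik3ca, Pdpk1 and Pik3cg move from clearly negative values to near 0, and Eif4ebp1 and Pik3r5 keep their sides.

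Set side by side, the medians of activators and inhibitors lay near 0 with all 6 arrays and farther apart without KO replicate 1. The activators had a median difference of -0.026, with 10 of 19 lower and 9 higher in KO, and the inhibitors a median of 0.028, with 6 of 14 lower and 8 higher; over all tested genes 59.7% were lower. Relative to the median of all genes the medians were 0.026 for activators and 0.079 for inhibitors. Median centring moved all genes by 0.10 and left these relative values as they were, while the activators' own median turned to 0.077 with it and to 0.031 with quantile normalization. By array, the median deviation of the inhibitors from their WT means was -0.032, 0.027 and 0.019 in the WT arrays and -0.15, 0.14 and 0.095 in the KO arrays. For the activators it was -0.079, 0.0080 and 0.089 in WT and -0.19, 0.019 and 0.015 in KO. The KO arrays thus lay on both sides of the WT arrays for the inhibitors and partly inside their range for the activators. Over all 13891 tested genes it was -0.045, 0.030 and 0.022 in WT and -0.12, 0.00018 and -0.013 in KO. KO replicate 1 thus lay lowest over all genes too. Without KO replicate 1 the inhibitors' median was 0.13 and the activators' 0.0090. Without KO replicate 2 the inhibitors' median was -0.033, and without KO replicate 3 it was -0.010. No test was made over the members, since the split into activators and inhibitors was drawn up with earlier results of these data known.

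The rest of the pathway was described through 70 further genes, of which 67 had a probe set with 1 symbol and 59 passed the filter. None of the 59 passed after adjustment (smallest adjusted p 0.296); at an unadjusted p 3 were lower and 7 higher in KO, where 7.67% and 2.99% of all genes were, and the median difference was -0.048. Pik3cd, the delta catalytic subunit that dominates in lymphocytes, measured 9.75, 9.75 and 9.82 in WT and 10.36, 10.05 and 10.17 in KO. Its groups did not overlap (difference 0.42, SE 0.14, adjusted p = 0.310), and like Mtor it lies within 10 Mb of Park7. Other genes with small p on the higher side were Eif4ebp3, a further 4E-BP gene (0.48), Pik3c2b, a lipid kinase of another PI3K type (0.40), and Ddit4, which encodes REDD1, an activator of the tuberous sclerosis complex (0.46). Their adjusted p-values were 0.296, 0.380 and 0.398. The FoxO factor genes Foxo1 and Foxo3, whose products Akt keeps out of the nucleus, differed by 0.32 and 0.41 (adjusted p = 0.459 and 0.424). In both every KO array lay above every WT array. Without overlap 6 of the 59 genes were higher and 6 lower in KO, where 6.10% and 11.3% of all genes were. Eif4e and Ulk1 were among the 6 lower. On the lower side were Tbc1d7, the third subunit of the tuberous sclerosis complex (-0.60, adjusted p = 0.344), the cap-binding factor Eif4e (-0.48), the autophagy kinase Ulk1 (-0.30) and the lipid phosphatase gene Inppl1, for SHIP2 (-0.37). Akt1s1, the gene of the mTOR inhibitor PRAS40, differed by 0.095.

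Genes that lie downstream of the pathway were taken from lists of FoxO-induced and mTORC1-induced genes. Of the 17 FoxO-induced genes 15 were tested, 9 higher and 6 lower in KO, with a median of 0.024, and 0 passed after adjustment. At an unadjusted p 2.99% of all tested genes were higher and 7.67% lower, and of these 15 genes 1 was higher and 0 lower. That gene was Txnip, which restrains glucose uptake (0.32, adjusted p = 0.440). Klf2, a transcription factor of T cell quiescence, differed by 0.35, the death gene Bcl2l11 by 0.32 and the stress gene Gadd45a by 0.28, while Sod2 differed by -0.18, the interleukin 7 receptor gene Il7r by -0.14, Trib1 by -0.11 and Ccng2 by -0.089 (0.013 with median centring). Of the 20 mTORC1-induced genes 17 were tested, 7 higher and 10 lower, with a median of -0.044, and 0 passed after adjustment. At an unadjusted p 2 of the 17 were higher and 2 lower, beside the same 2.99% and 7.67% of all tested genes. The lower were Asns and Psat1, enzymes of asparagine and serine synthesis (-0.52 and -0.54, adjusted p = 0.213 and 0.302). The higher were Sqle, an enzyme of sterol synthesis (0.74, adjusted p = 0.259), and Srebf1, a lipogenic transcription factor (0.39, adjusted p = 0.427). The remaining genes named by the rule were Srebf2 (0.26), Mthfd2 (0.21), the glucose transporter gene Slc2a1 (0.12), the hexokinase gene Hk2 (-0.24) and Atf4 (-0.21).

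Markers of other cell states were set beside these values. Among 11 measured markers of naive or central T cells, 9 were higher in KO, with a median difference of 0.35, and 0 passed after adjustment. At an unadjusted p 5 were higher and 0 lower, where 2.99% and 7.67% of all genes were. Without overlap 4 were higher and 1 lower, where 6.10% and 11.3% of all genes were. Klf2, Il7r, S1pr1 and Ccr7 are on the FoxO-induced list too. The median level of the 11 markers was 10.27, 10.34 and 10.50 in WT and 10.77, 10.55 and 10.68 in KO. It was highest in KO replicate 1, as Pik3r5 and Pik3ip1 were. The part of these markers in the members' values was not tested. Of the 8 macrophage markers 6 were tested and all 6 were lower in KO, with Vcam1 past the threshold (-1.15, adjusted p = 0.0343). The median level over all 8 was 6.32 to 6.86 in WT and 5.87 to 6.05 in KO, the latter near the filter's limit of 5.90. Csf1r differed by -0.54. For plasma cells the median level was 6.76 to 7.71 in WT and 6.11 to 7.08 in KO. For natural killer and CD8 T cells it was 6.79 to 7.31 and 6.37 to 6.71 over all 7 measured markers. Of the 6 tested markers of natural killer and CD8 T cells 3 were lower and 3 higher in KO, with a median difference of 0.011 and 0 past the threshold. Without overlap, Ncr1 (-0.85, adjusted p = 0.212) and Cd8b1 (-0.30) were lower and Klrb1c (0.28) higher. For B cells the median level was 5.80 to 6.19 in WT and 5.85 to 6.13 in KO, where Cd79a differed by -0.23 and 3 of 7 measured markers passed the filter. The dendritic cell, neutrophil and erythroid lists had 2, 3 and 2 members past the filter. The part of any of these cells in the members' values was not tested.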

How the data were processed

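The deposited values are intensities on a linear scale, which the authors obtained by an exon-level analysis in Affymetrix Expression Console 1.4 with PLIER as the summary method, per the labels and the submitters' processing notes. Background correction, scaling between arrays and genome build are not given in the sources used here. No counts underlie them, so the number of arrays limits the precision. Sample titles gave each array's group and replicate number.

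Values were transformed as log2(intensity + 16), which understates differences of dim probe sets. Of 269751 probe sets 233753 had 1 gene symbol in the platform annotation, 5106 had several and were not used, and 30892 had none. A RefSeq table of GRCm38.p6 served for older names of listed genes and for membership of the window around Park7. KO and WT were compared in limma 3.58.1 (R 4.3.3; lmFit and eBayes, two-sided, Benjamini-Hochberg over 13891 genes, threshold 0.05), a fit tested on simulated data. With 3 arrays a group, an exact permutation p is at least 0.10. 9261 genes under the filter were left out.

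The members, lists and tests were chosen with earlier results of these data known. The rule named every member, Park7, the 4 genes of smallest p in each direction of the wider, FoxO and mTORC1 lists, a few fixed genes, and for Mtor 3 probe sets in each direction. Listed genes with no probe set of 1 symbol were not analysed here. Alternatives changed the pseudocount, filter, probe-set summary, scaling, variance model, weights, replicate block and arrays.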

Additional observations from a re-analysis of the deposited data

How the results depend on the processing

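In limma, 0 members passed after adjustment under each of the 11 other settings and the 6 fits without 1 array, and the smallest adjusted p of any member was 0.132. Deptor did not pass the filter at the 60th percentile and has no value there. In the wider, FoxO and mTORC1 lists 0 genes passed under these settings either, alternatives that were chosen after seeing the data. Among the genes of these lists that were followed one by one, the smallest adjusted p was 0.0752, for Eif4e. The count at an unadjusted p was 1 with a pseudocount of 1 and 4 with a pseudocount of 64, with a trended and robust prior and with array weights. It ranged from 0 to 3 without 1 array, 0 without WT replicate 1 and 1 without WT replicate 2. Of all 13891 tested genes, 1460, 1530, 1498 and 1953 had an unadjusted p under 0.05 in the named settings, in that order. Without 1 array 936 to 1730 did, 1190 without WT replicate 1 and 936 without WT replicate 2. Of the 33 members, 7 showed no overlap with bright probe sets (18.6% of all genes did) and 9 with median centring (18.2% of all genes). Without 1 array it was 6 to 15 members, where 23.9% to 30.1% of all genes showed no overlap. Leaving out WT replicate 1 or WT replicate 3 gave 8 (28.4% and 27.7% of all genes). Leaving out KO replicate 3 gave 7 (26.0% of all genes) and leaving out KO replicate 1 gave 15 (29.0%). The inhibitors' median was 0.13 with median centring and -0.033 to 0.13 without 1 array, and the activators' median -0.074 to 0.0091.

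Signs turned for 19 members, in 64 of 561 refits, none of which passed the test. With the mean of probe sets these were Pdpk1 (0.022), Rictor (-0.054), Mlst8 (-0.069), Rraga (-0.20), Rps6kb2 (0.047), Inpp4b (-0.021), Tsc1 (-0.076), Nprl2 (0.024), Nprl3 (0.0088), Depdc5 (0.13), Sesn1 (0.11), Sesn3 (-0.00015) and Deptor (-0.028), and outside the members Trib1 (0.0029), Atf4 (0.0049) and Mthfd2 (-0.0092). With bright probe sets they were Pik3cb (-0.0027), Akt1 (-0.039), Pdpk1 (0.070), Tsc1 (-0.12) and Mthfd2 (-0.030). With quantile normalization they were Mtor (0.027), Rps6kb2 (0.031), Nprl3 (0.025) and Depdc5 (0.048), and with median centring Mtor (0.073), Rps6kb2 (0.077), Nprl2 (0.0056), Nprl3 (0.081), Depdc5 (0.092) and Ccng2 (0.013). With array weights they were Akt1 (-0.073), Mtor (0.0049), Rraga (-0.065), Depdc5 (0.039) and Sesn1 (0.050), and the median over Mtor's single probe sets was 0.025. A kept sign did not always mean a kept size. Over the settings and fits Srebf1 ranged from 0.026 to 0.50 and Ulk1 from -0.34 to -0.016.

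Without 1 array the sign of 17 members turned at least in 1 fit. The ranges were -0.58 to 0.0090 for Pik3ca, -0.14 to 0.23 for Pik3cb, -0.57 to 0.053 for Pik3cg, -0.087 to 0.11 for Akt1, -0.46 to 0.064 for Pdpk1, -0.062 to 0.028 for Mtor, -0.034 to 0.11 for Rictor, -0.074 to 0.24 for Mlst8 and -0.099 to 0.072 for Rraga. They were -0.067 to 0.0084 for Rps6kb2, -0.0054 to 0.29 for Inpp4b, -0.18 to 0.088 for Nprl3, -0.051 to 0.058 for Depdc5, -0.28 to 0.14 for Sesn1, -0.029 to 0.13 for Sesn3, -0.038 to 0.16 for Deptor, -0.022 to 0.25 for Eif4ebp2 and -0.26 to 0.029 for Ccng2. The cause of these turns was not tested. With the replicate block 0 members passed and 3 did at an unadjusted p. With group means taken out, same-numbered WT and KO arrays correlated by 0.15, 0.17 and 0.010. The other WT and KO pairs correlated by -0.19 to 0.092. Whether same-numbered arrays share more than a number was not tested. With the block 67 genes in all passed, against 38. Among all genes 59 passed with the mean of probe sets, 125 with array weights, and 4 when WT replicate 1 or 2 was left out. Leaving out WT replicate 3 gave 7 genes, and KO replicate 3 gave 11.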
